A study of Mus musculus with 2 samples.

Results

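The mitochondrial import genes and the SLC25 carrier genes were described in 1 RNA-seq library of IL-2 expanded and 1 of freshly isolated γδ T cells from mouse spleen. Members were the rows of the deposited count table whose symbol was Timm or Tomm followed by a number, or Slc25a followed by a number alone. The rule took 73 of 24091 rows, of which 26 were TIM or TOM genes and 47 were SLC25 carriers. The 26 include Tomm6os, an antisense RNA at the Tomm6 locus. Per the labels' protocols, cells were sorted by flow cytometry and expanded with plate-bound anti-CD3, soluble anti-CD28 and recombinant mouse IL-2 (100 U/ml), with 5 days of culture. The other library was labelled as freshly isolated, although the same protocol text, which speaks of activated and cultured cells, stands beside both libraries, and it was read as uncultured from its treatment label. Under that reading, receptor stimulation, culture and IL-2 differ together between the libraries and cannot be told apart. Strain, age and the number of animals are not given in the sources used here.

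Most mitochondrial proteins are made in the cytosol and enter through the TOM complex, the general pore of the outer membrane. The TIM23 complex then moves proteins with a cleavable presequence across or into the inner membrane, while small TIM chaperones hand carrier proteins across the intermembrane space to the TIM22 complex. SLC25 carriers, themselves clients of that route, exchange nucleotides, phosphate, carboxylates, amino acids, cofactors and metal ions across the inner membrane. Activated T cells are known to enlarge their mitochondrial mass as they grow.

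The total count was 22204099 in the expanded library and 20379385 in the freshly isolated library, and a level of 1 count equalled 0.0476 and 0.0465 CPM (counts in each 1000000 of the scaled library size) in expanded and freshly isolated cells. Of 8 T cell markers, 6 lay within 2-fold, Cd3e among them at 688 CPM in expanded and 734 CPM in freshly isolated cells, and Cd2 and Lck were at least 2-fold lower. These genes do not separate γδ from other T cells, and γδ receptor genes were not analysed here. Markers of other spleen cells stood mainly in the freshly isolated library. The 12 B cell markers summed to 4.42 CPM in expanded and 936 CPM in freshly isolated cells, the 18 macrophage and monocyte markers to 84.1 and 1196 CPM, and the 9 erythroid markers to 0.714 and 93.6 CPM, in the same order of libraries. The plasma cell gene Jchain alone gave 784 CPM of the B cell sum in freshly isolated cells, and Hmox1 and Cd68 gave 63.0 and 20.7 CPM of the macrophage sum in expanded cells, nearly all of it. In the expanded library 7 of the B cell, 12 of the macrophage and 6 of the erythroid markers had 0 counts, among them Cd79a, C1qa and Hbb-bs, whereas none had 0 counts in the freshly isolated library. The 7 platelet markers summed to 0.333 CPM in expanded and 5.90 CPM in freshly isolated cells, and the 11 neutrophil markers to 17.8 and 11.7 CPM, where the whole level in expanded cells came from Ly6g. Ly6g had 0 counts in freshly isolated cells, where Csf3r gave 10.1 CPM of the neutrophil sum. The part of these cells in the levels below was not tested. In these bulk libraries, fewer cells of a type and less RNA per cell cannot be told apart.

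With 1 library in each group no difference has a replicate check and none was tested. Folds are ratios of CPM, with exact 95% intervals that cover counting error only, and genes were counted as higher or lower when the log2 fold (with a prior count of 2) was at least 2-fold. Genes were compared when their level averaged at least 1 CPM across the pair of libraries, and 60 of the 73 members were compared. In expanded cells, 19 of these 60 were at least 2-fold higher, 9 were at least 2-fold lower and 32 lay between. Over all 11715 genes compared, 22.4% were at least 2-fold higher and 25.0% at least 2-fold lower. The counting interval of the fold excluded 1 for 55 of the 60 members.

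The import and carrier genes differed in how they divided. Of 23 TIM and TOM genes compared, 10 (43.5%) were at least 2-fold higher in expanded cells and 0 were 2-fold lower, with a median log2 fold of 0.64. Of 37 SLC25 carriers, 9 (24.3%) were at least 2-fold higher and 9 (24.3%) at least 2-fold lower, with a median of 0.15. The carriers thus stood near the background in both directions, and the median over all genes compared was 0.04. At a 4-fold cutoff, Timm8a1, Slc25a13 and Timm17a were higher and Slc25a23 and Slc25a27 lower, against 8.92% of all genes higher and 13.5% lower.

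**Figure D1:**
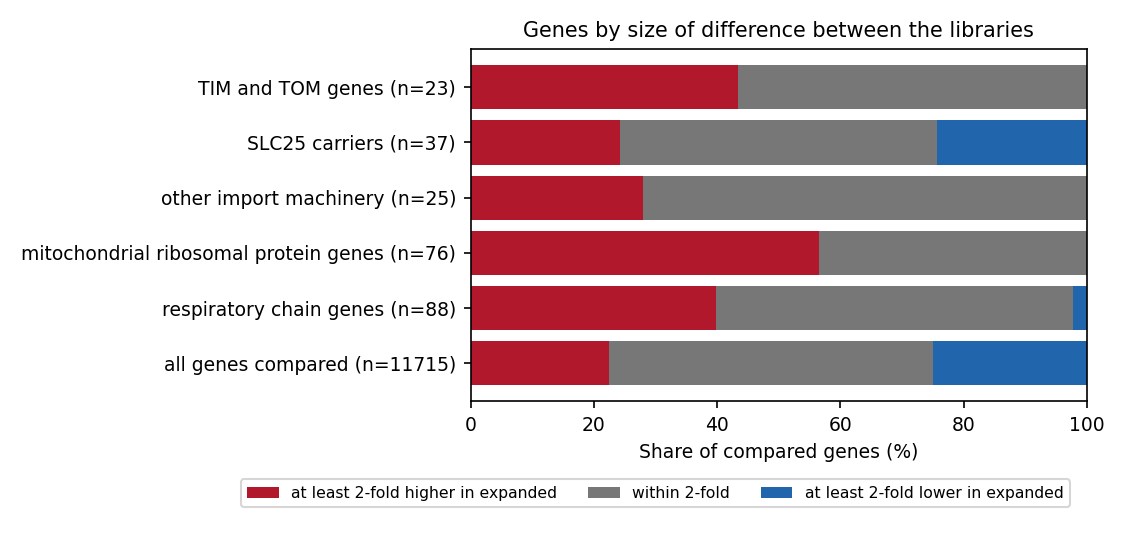
Share of compared genes (percent, horizontal axis) in expanded cells at least 2-fold higher (red), within 2-fold (grey) or at least 2-fold lower (blue), for each gene set with its number of genes compared. No TIM or TOM gene falls in the blue part, while 9 of 37 SLC25 carriers do.

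Promoters are shown for the carrier that stood furthest up, for the partners of the Timm9 and Timm10 chaperone, which were higher together, and for the carrier furthest down. The 3 higher genes shown are among the 5 of 19 higher members whose promoter holds the sequence in capitals. Timm17a, with a larger log2 fold than Timm9 and Timm10, holds none. Timm13 and Timm8b, partners of another small TIM chaperone that were also higher together, hold none either. The windows run from 250 bases before to 50 bases after the start of the gene in RefSeq (build GRCm38.p6), 5′ to 3′ on the strand of the gene, with the E-box sequence CACGTG in capitals. They are chr6:6217124-6217423 (minus strand) for Slc25a13, chr2:84826771-84827070 (plus strand) for Timm10, chr12:71136626-71136925 (minus strand) for Timm9 and chr17:57059814-57060113 (minus strand) for Slc25a23.
Slc25a13: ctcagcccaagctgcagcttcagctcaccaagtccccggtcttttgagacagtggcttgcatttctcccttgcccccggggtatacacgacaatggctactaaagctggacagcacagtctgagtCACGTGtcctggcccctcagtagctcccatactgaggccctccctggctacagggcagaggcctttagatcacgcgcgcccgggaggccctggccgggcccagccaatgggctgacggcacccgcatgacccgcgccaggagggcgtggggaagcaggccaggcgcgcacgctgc
Timm10: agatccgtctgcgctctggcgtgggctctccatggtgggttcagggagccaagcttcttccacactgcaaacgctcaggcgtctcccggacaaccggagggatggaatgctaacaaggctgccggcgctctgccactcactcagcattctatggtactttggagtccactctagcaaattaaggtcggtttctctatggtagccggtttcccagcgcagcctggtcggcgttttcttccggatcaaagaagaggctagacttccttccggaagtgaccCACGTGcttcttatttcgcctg
Timm9: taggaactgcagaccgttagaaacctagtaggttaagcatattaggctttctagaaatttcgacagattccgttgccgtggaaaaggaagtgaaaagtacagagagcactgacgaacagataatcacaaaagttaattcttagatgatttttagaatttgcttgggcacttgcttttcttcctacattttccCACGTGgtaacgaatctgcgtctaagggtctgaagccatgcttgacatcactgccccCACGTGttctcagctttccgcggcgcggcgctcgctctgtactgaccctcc
Slc25a23: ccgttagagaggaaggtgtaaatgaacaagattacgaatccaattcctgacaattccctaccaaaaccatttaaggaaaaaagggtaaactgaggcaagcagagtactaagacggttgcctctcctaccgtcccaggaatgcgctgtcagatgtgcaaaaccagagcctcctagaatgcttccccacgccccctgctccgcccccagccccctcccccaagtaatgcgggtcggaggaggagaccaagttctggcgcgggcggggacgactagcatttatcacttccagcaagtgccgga

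The E-box, as background, is a sequence bound by MYC and other helix-loop-helix factors. Counting the start base as 0, it lay at -125 to -120 in Slc25a13, at 28 to 33 in Timm10, and both at -58 to -53 and at -1 to 4 in Timm9. Slc25a23 held none. Promoter sequences were found for 48 of the 60 members compared. CACGTG, which reads the same on both strands, stood in 5 of 19 promoters of members at least 2-fold higher (26.3%), in 4 of 22 between (18.2%) and in 0 of 7 at least 2-fold lower. The 5 were Slc25a13, Timm10, Timm9, Slc25a1 and Timm8a1. Of 9426 compared genes with a promoter, 10.4% held it, as did 10.3% of the 2103 that were at least 2-fold higher. The NRF1 type sequence, GCGCA and GCGC with any 1 base between them, searched on both strands, stood in 3 of 48 member promoters (6.25%), against 11.1% of all. The ATF4 type sequence TGATGNAA stood in 0 of 48, against 2.24% of all, and CCAAT in 20 of 48 (41.7%), against 38.8%. Such matches describe these letters in these windows and are neither binding sites nor causes.

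At the outer membrane, 3 of 9 genes compared in the TOM group (33.3%) were at least 2-fold higher in expanded cells, and none was 2-fold lower. The shares over all genes compared were 22.4% and 25.0%. The median log2 fold was 0.64, and the summed level was 948 CPM in expanded and 576 CPM in freshly isolated cells. Tomm70a (chromosome 16, 57121714 to 57154530, build GRCm38), the receptor that takes carrier precursors from cytosolic chaperones, stood at 305 CPM in expanded and 125 CPM in freshly isolated cells, 2.44-fold higher (interval 2.33 to 2.55). The other receptors were closer between the libraries. Tomm22 stood at 142 CPM in expanded and 82.7 CPM in freshly isolated cells, and Tomm20, the receptor for presequences, at 49.2 and 41.4 CPM. Tomm20 has 4 pseudogene copies at 95% identity or more, so its value is uncertain. The pore gene Tomm40 was 2.74-fold higher, at 96.5 CPM in expanded and 35.2 CPM in freshly isolated cells (interval 2.52 to 2.99), and shares 258 transcript bases with the antisense gene Gm20512. Its paralogue Tomm40l stood at 42.9 and 33.6 CPM, which was within 2-fold, and its locus is shared with the opposite-strand rows Apoa2 and Nr1i3.

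Of the small TOM subunits, 1 of 3 was at least 2-fold apart, where 22.4% of all genes compared were higher and 25.0% lower. Tomm5 was 2.66-fold higher, at 30.9 CPM in expanded and 11.6 CPM in freshly isolated cells (interval 2.29 to 3.09). Tomm7 stood at 90.7 and 58.3 CPM and Tomm6 at 99.5 and 73.0 CPM in expanded and freshly isolated cells. Tomm6 shares its locus with the opposite-strand row Tomm6os, which had 11 counts in expanded and 18 in freshly isolated cells, too few to pass the filter. The transcript of Tomm6 also matched that of Gm21981 over 656 of 749 bases at 100% identity, so the value of Tomm6 is uncertain. Tomm34, a cytosolic cochaperone that is not a TOM subunit, was the one gene of the group below 0 on the log2 scale, at 92.5 CPM in expanded and 115 CPM in freshly isolated cells. Tomm20l had 0 counts in both libraries.

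The small TIM chaperones of the intermembrane space included 5 of 6 genes compared (83.3%) at least 2-fold higher in expanded cells, against 22.4% of all genes. Their median log2 fold was 1.36, and their summed level was 182 CPM in expanded and 84.6 CPM in freshly isolated cells. Timm9 and Timm10 form a hexameric chaperone for carrier precursors. Timm10 (chromosome 2, 84827021 to 84830213) was 3.30-fold higher, at 19.3 CPM in expanded and 5.85 CPM in freshly isolated cells (interval 2.70 to 4.06). Timm9 was 2.30-fold higher, at 33.8 and 14.7 CPM (interval 2.02 to 2.64). The partners of the second chaperone of this space were higher by similar amounts. Timm13 was 2.57-fold higher, at 51.4 CPM in expanded and 20.0 CPM in freshly isolated cells (interval 2.30 to 2.88), and Timm8b was 2.59-fold higher, at 48.4 and 18.7 CPM (interval 2.31 to 2.92). Opposite-strand rows overlap Timm9 (Tomm20l, with 0 counts in both libraries), Timm13 (Tmprss9) and Timm8b (AU019823), and the use of strand in counting is not given.

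Timm8a1, the mouse counterpart of the gene mutated in human deafness-dystonia syndrome, had 114 counts in expanded and 15 in freshly isolated cells, a 7.78-fold higher level with a wide interval of 4.53 to 14.4. Its row has a deposited span of 122932447 bases on chromosome X, far longer than its length of 2.438 kb, and its transcript matched that of Gm9797 over 612 bases at 100% identity, so its value is uncertain. Timm10b, a subunit of the TIM22 complex, was the exception, at 23.3 CPM in expanded and 24.5 CPM in freshly isolated cells, with an interval that held 1 (0.839 to 1.08). Its transcript matched that of Gm45799 over 365 of 3273 bases at 99.7% identity, so its value is uncertain. Timm8a2 had 1 count in expanded and 4 counts in freshly isolated cells.

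**Figure D2:**
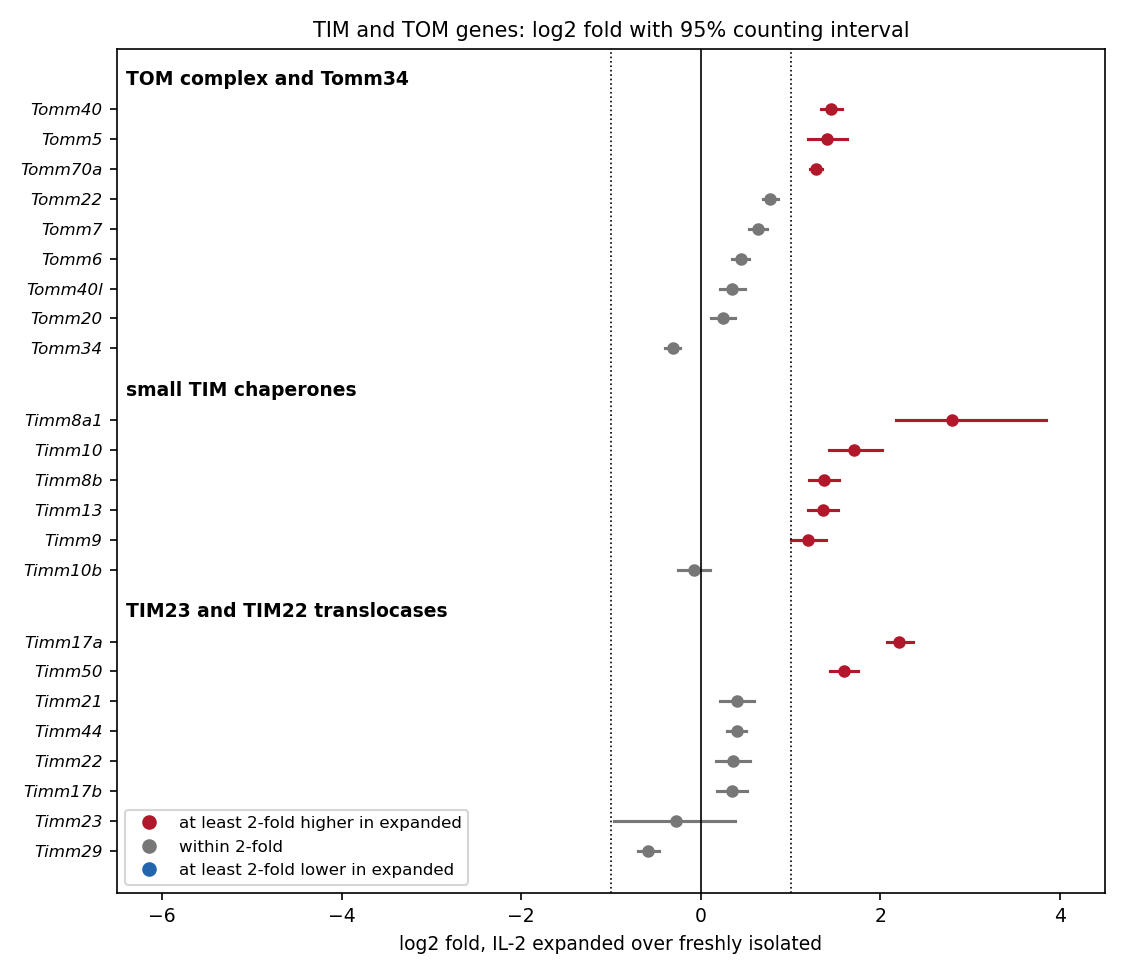
Log2 fold of expanded over freshly isolated cells (horizontal axis) for the 23 TIM and TOM genes compared, grouped by complex, with bars for the exact 95% counting interval and dotted lines at 2-fold. The small TIM chaperones lie right of the 2-fold line apart from Timm10b, and no gene lies left of the lower line.

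In the inner membrane translocases, 2 of 8 genes (25%) were at least 2-fold higher, near the 22.4% of all genes compared. The others lay within 2-fold, with a median log2 fold of 0.38, whereas 25.0% of all genes were at least 2-fold lower. Timm17a (chromosome 1, 135301535 to 135313737), a channel subunit of TIM23, was 4.64-fold higher, at 104 CPM in expanded and 22.4 CPM in freshly isolated cells (interval 4.20 to 5.13). Its paralogue Timm17b stood at 30.9 and 24.2 CPM. Timm17a took 77.1% of the counts of the Timm17 pair in expanded cells (interval 75.5 to 78.7) and 48.1% in freshly isolated cells (45.0 to 51.2), so the balance of the pair differed between the libraries by more than counting error. A processed pseudogene, Gm7180, shares 516 of the 7280 transcript bases of Timm17a at 96.3% identity. Timm50, the receptor of TIM23 that meets presequences as they leave TOM, was 3.03-fold higher, at 63.9 CPM in expanded and 21.1 CPM in freshly isolated cells (interval 2.72 to 3.38).

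The remaining translocase genes were close between the libraries. Timm44, which tethers the import motor, stood at 76.6 CPM in expanded and 58.0 CPM in freshly isolated cells. Timm21 was at 24.9 and 18.8 CPM, and Timm22, the channel for carrier proteins, at 24.4 and 19.0 CPM. Timm29, a subunit of the TIM22 complex, lay on the other side of 0, at 45.3 CPM in expanded and 67.9 CPM in freshly isolated cells. The TIM22 complex genes Timm22, Timm29 and Timm10b thus lay within 2-fold, while the chaperones that feed it were mostly at least 2-fold higher. The values of Timm10b and of Timm29, which overlaps the opposite-strand row Yipf2, are uncertain. Timm23 had 36 counts in expanded and 45 in freshly isolated cells. Its transcript was 99.9% identical to that of Gm10273 over 1121 of 1173 bases and 6 genes in all matched it at 95% identity or more, so its value is uncertain.

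A list of 26 other genes was read beside them. It covers the motor, the sorting complex, the disulphide relay and the presequence proteases. It also holds genes outside these parts, among them Hspd1 and Hspe1 of the matrix chaperonin and Dnajc11. Of 25 compared, 7 (28%) were at least 2-fold higher, against 22.4% of all genes, and Hspd1, Hspe1 and Dnajc11 were among the 7. At least 2-fold lower were 0, against 25.0% of all genes, and the median log2 fold was 0.63. Chchd4, the oxidoreductase that traps small TIM proteins in the intermembrane space, stood at 44.2 CPM in expanded and 7.76 CPM in freshly isolated cells. Hspd1, the matrix chaperonin, stood at 350 and 84.0 CPM. The lowest folds belonged to the outer membrane genes Mtx3, at 11.8 CPM in expanded and 22.2 CPM in freshly isolated cells, and Mtx1, at 35.2 and 42.7 CPM. Hspa9, the import motor that Timm44 tethers, was looked at after its value was seen, and stood at 811 CPM in expanded and 226 CPM in freshly isolated cells. Of 76 mitochondrial ribosomal protein genes, 43 (56.6%) were at least 2-fold higher and 0 lower, and of 88 respiratory chain genes 35 (39.8%) were higher and 2 lower. No test separates these sets from the TIM and TOM genes.

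The carriers that supply ATP synthase divided by substrate. Slc25a3, the phosphate carrier, stood at 635 CPM in expanded and 791 CPM in freshly isolated cells and was within 2-fold (ratio 0.803, interval 0.785 to 0.821). The ADP/ATP carriers Slc25a5 and Slc25a4 were higher together. Slc25a5 (chromosome X, 36795597 to 36798808) was 2.79-fold higher, at 322 CPM in expanded and 116 CPM in freshly isolated cells (interval 2.66 to 2.92). Slc25a4 was 2.53-fold higher, at 225 and 89.0 CPM (interval 2.39 to 2.67). Per kb of deposited gene length, Slc25a5 was the highest member in expanded cells, at 249 CPM per kb, ahead of Slc25a4 at 147 and Slc25a3 at 123. In freshly isolated cells Slc25a3 came first, at 153 CPM per kb, against 89.5 for Slc25a5 and 58.1 for Slc25a4. Slc25a5 has 2 processed pseudogenes at 95% identity or more, so its value is uncertain. The germ cell ADP/ATP carrier Slc25a31 had 0 counts in expanded and 2 in freshly isolated cells, and Slc25a54 had 0 in both.

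**Figure D3:**
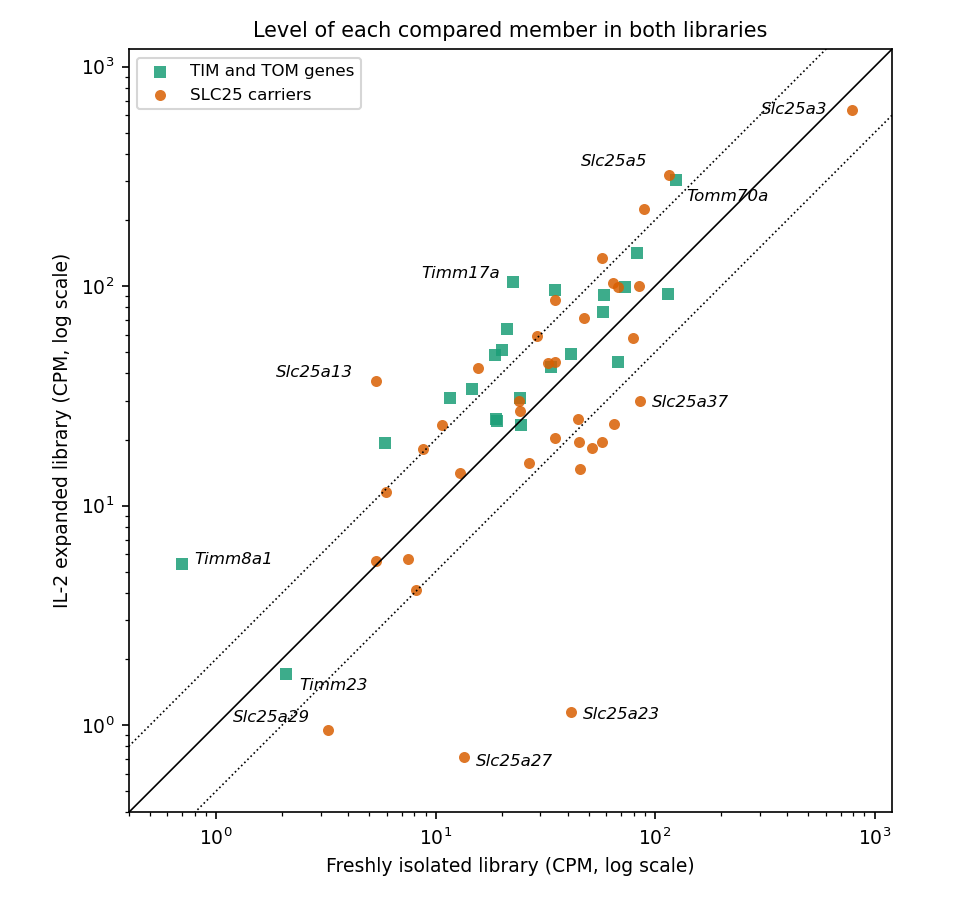
Level of 59 of the 60 members compared in the expanded (vertical axis) and freshly isolated library (horizontal axis), in CPM on log scales, with squares for TIM and TOM genes and circles for SLC25 carriers. The solid line marks equal levels and the dotted lines 2-fold. Levels are not per length. Slc25a23 and Slc25a27 lie furthest below the lines, at 1.14 and 0.714 CPM in expanded cells against 41.3 and 13.4 CPM in freshly isolated cells.

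The calcium-sensitive ATP-Mg/phosphate carriers, which set the adenine nucleotide pool of the matrix, stood on opposite sides of 2-fold. Slc25a24 was 2.36-fold higher, at 135 CPM in expanded and 57.1 CPM in freshly isolated cells (interval 2.21 to 2.53). Slc25a23 (chromosome 17, 57043711 to 57059863) had 24 counts in expanded and 890 in freshly isolated cells, 1.14 and 41.3 CPM, and was 36.2-fold lower (interval 24.2 to 56.8). Slc25a25 was 3.07-fold lower, at 14.7 CPM in expanded and 45.3 CPM in freshly isolated cells (interval 2.70 to 3.50), and overlaps the opposite-strand row Naif1. The summed level of the family was close between the libraries, at 151 CPM in expanded and 144 CPM in freshly isolated cells. Slc25a24 took 99.2% of the counts that it shares with Slc25a23 in expanded cells and 58.0% in freshly isolated cells. Slc25a41 had 0 counts in both libraries. Macrophage, B cell and erythroid markers were lower in the expanded library too, and their part in the lower carriers was not tested.

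Carriers of di- and tricarboxylates were higher or close. Slc25a1, which exports citrate for lipid synthesis, was 2.06-fold higher, at 59.6 CPM in expanded and 28.8 CPM in freshly isolated cells (interval 1.87 to 2.28). Slc25a10, the dicarboxylate carrier, was 2.08-fold higher, at 18.2 and 8.73 CPM (interval 1.74 to 2.49). Both lay just inside the 2-fold cutoff, and both lay under it with 3 of the 4 other scalings. Their log2 folds were 0.89 and 0.89 with total count, 0.97 and 0.98 with upper quartiles, and 0.96 and 0.97 with total count less the top 50 genes. Slc25a10 also shares 228 transcript bases with the antisense gene Gm11788. Slc25a11, the oxoglutarate carrier of the malate-aspartate shuttle, stood at 99.9 CPM in expanded and 84.4 CPM in freshly isolated cells. The oxodicarboxylate carrier Slc25a21 had 0 counts in expanded and 5 in freshly isolated cells.

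Of 7 amino acid carriers compared, 2 (28.6%) were at least 2-fold higher and 2 (28.6%) at least 2-fold lower. These shares were near those of all genes compared, 22.4% and 25.0%. Slc25a13 (chromosome 6, 6041218 to 6217173), which encodes the aspartate/glutamate carrier citrin, stood furthest up among the carriers. It had 774 counts in expanded and 115 in freshly isolated cells, 36.8 and 5.34 CPM, a 6.89-fold higher level (interval 5.66 to 8.46). Its paralogue Slc25a12, or aralar, stood at 98.7 CPM in expanded and 68.1 CPM in freshly isolated cells. Slc25a13 thereby took 27.2% of the counts of the pair in expanded cells (interval 25.5 to 28.8) and 7.28% in freshly isolated cells (6.05 to 8.67). The transcript of Slc25a12 matched that of Adpgk over 247 of 6351 bases at 99.6% identity. Slc25a15, which exchanges ornithine and citrulline, stood at 23.4 CPM in expanded and 10.7 CPM in freshly isolated cells. Its log2 fold was 1.12, just inside the cutoff, and 0.96 with scaling by total count.

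The lower amino acid carriers were Slc25a22 and Slc25a29. Slc25a22, a glutamate carrier, was 2.30-fold lower, at 19.6 CPM in expanded and 44.9 CPM in freshly isolated cells (interval 2.05 to 2.59). Slc25a29, a carrier of basic amino acids, had 20 counts in expanded and 70 in freshly isolated cells and was 3.42-fold lower (interval 2.06 to 5.93). The glycine carrier Slc25a38, needed for haem synthesis in red cell precursors, stood at 15.6 CPM in expanded and 26.7 CPM in freshly isolated cells. Slc25a44, a carrier of branched-chain amino acids, was at 45.1 and 35.1 CPM. Slc25a2, an ornithine carrier, had 0 counts in expanded and 23 in freshly isolated cells. Its mean was under the filter, and its row overlaps opposite-strand rows. Slc25a18 had 0 counts in expanded and 2 in freshly isolated cells, and Slc25a48 had 0 in both.

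**Figure D4:**
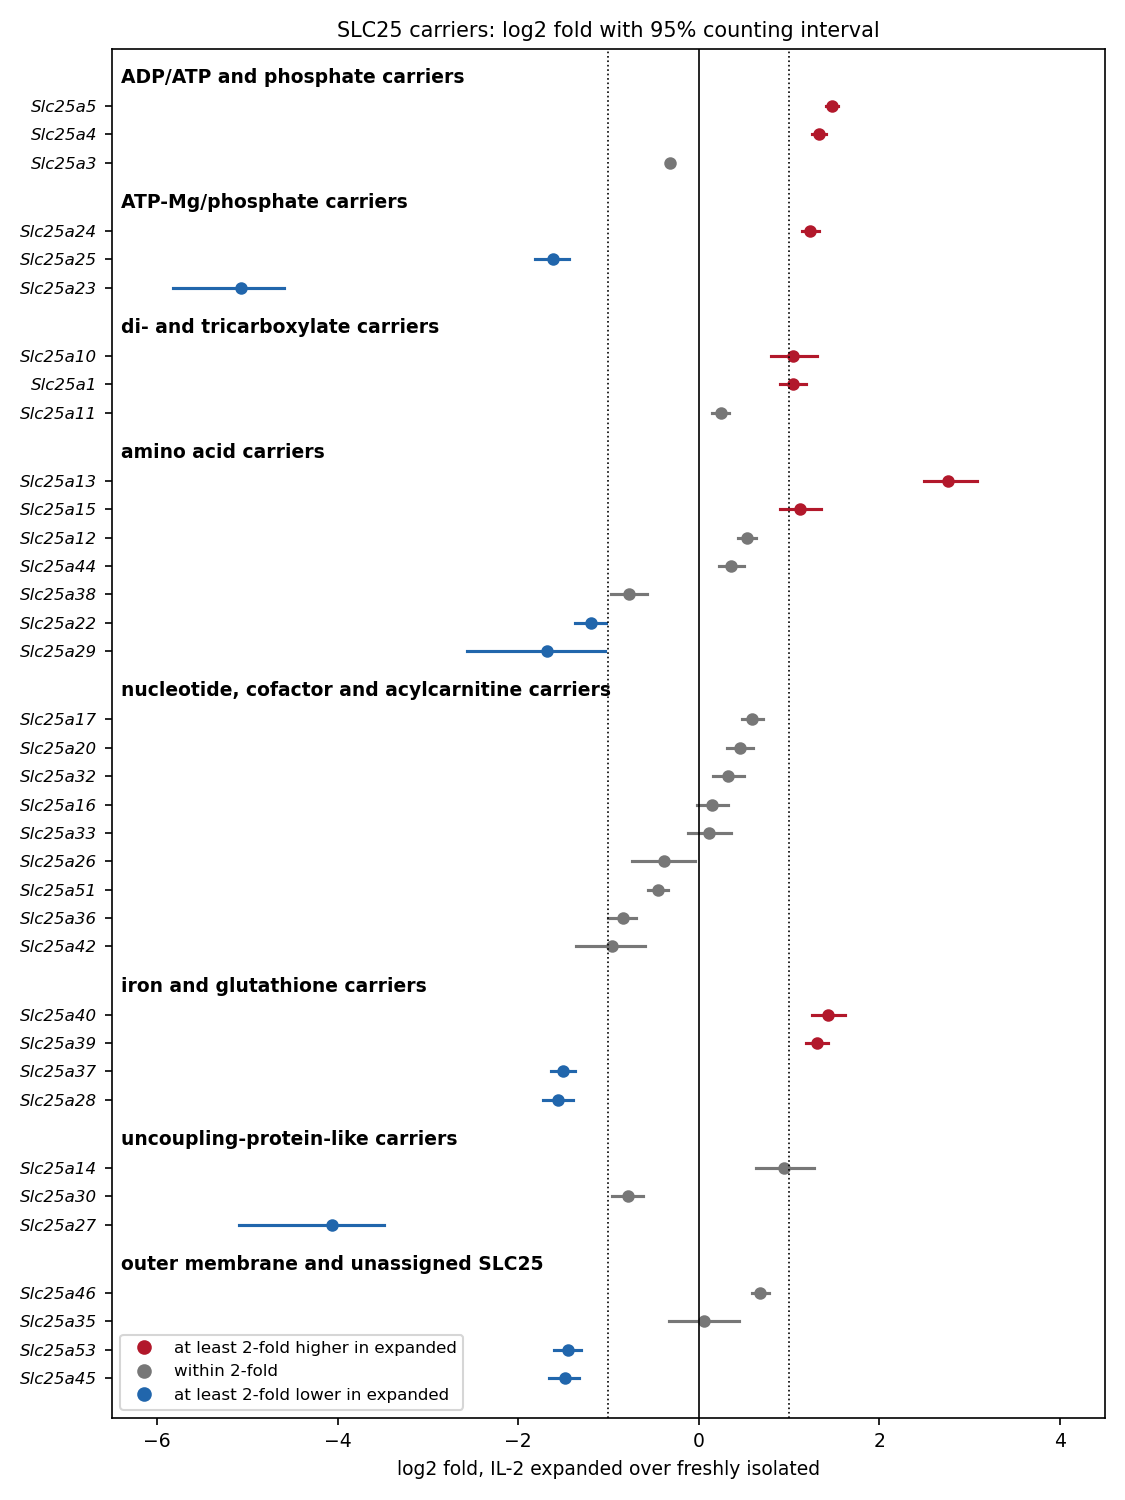
Log2 fold of expanded over freshly isolated cells (horizontal axis) for 36 of the 37 SLC25 carriers compared, grouped by substrate, with bars for the exact 95% counting interval and dotted lines at 2-fold. The nucleotide, cofactor and acylcarnitine carriers plotted lie between the dotted lines, whereas each carrier of iron or glutathione lies outside them. Of all 11715 genes compared, 6164 lay within 2-fold.

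Carriers of nucleotides, cofactors and acylcarnitine lay within 2-fold in all 10 cases. Of all 11715 genes compared, 6164 lay within 2-fold. The summed level of the 10 carriers was 326 CPM in expanded and 308 CPM in freshly isolated cells. Slc25a51, the NAD carrier, stood at 58.3 CPM in expanded and 79.6 CPM in freshly isolated cells, and Slc25a17, a cofactor carrier of peroxisomes, at 71.7 and 47.5 CPM. Furthest down in the group was Slc25a42, a coenzyme A carrier, at 4.14 CPM in expanded and 8.13 CPM in freshly isolated cells (log2 fold -0.96), which passed 2-fold lower with 3 of the 4 other scalings (-1.11 with total count, -1.03 with upper quartiles and -1.04 with total count less the top 50 genes). The pyrimidine nucleotide carriers differed from each other. Slc25a36 stood at 24.9 CPM in expanded and 44.7 CPM in freshly isolated cells and reached 2-fold lower with scaling by total count, whereas Slc25a33 stood at 14.1 and 13.0 CPM. Slc25a36 took 63.9% of the counts of that pair in expanded cells (interval 60.5 to 67.2) and 77.5% in freshly isolated cells (75.1 to 79.8), and a pseudogene matches Slc25a36 over 544 bases. Slc25a33 shares 281 transcript bases with the antisense gene Gm13068. Slc25a20 for acylcarnitine, Slc25a32 for folate, Slc25a26 for S-adenosylmethionine and Slc25a16 had log2 folds of 0.46, 0.33, -0.38 and 0.15. The sign for Slc25a16 and Slc25a33 turned with scaling by total count (-0.00 and -0.04).

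Iron and glutathione carriers split by substrate. Of 4 compared, 2 were at least 2-fold higher and 2 at least 2-fold lower, against 22.4% and 25.0% of all genes. The glutathione importers Slc25a39 and Slc25a40 were both higher. Slc25a39 was 2.49-fold higher, at 86.9 CPM in expanded and 34.9 CPM in freshly isolated cells (interval 2.28 to 2.71), and Slc25a40 was 2.70-fold higher, at 42.3 and 15.7 CPM (interval 2.38 to 3.07). A processed pseudogene, Gm5066, matches Slc25a40 over 724 bases at 96.3% identity. The mitoferrins, which import iron, were both lower. Slc25a37, mitoferrin 1 (chromosome 14, 69241851 to 69285103), was 2.84-fold lower, at 30.0 CPM in expanded and 85.0 CPM in freshly isolated cells (interval 2.59 to 3.11). Its transcript shares sequence with 3 other genes, over 382 bases at 100% identity with the protein-coding Gm16867, so its value is uncertain. Slc25a28, mitoferrin 2, was 2.95-fold lower, at 19.5 and 57.4 CPM (interval 2.63 to 3.31). Within each pair the balance was close, with Slc25a37 at 60.6% of the mitoferrin counts in expanded cells (interval 57.6 to 63.6) and 59.7% in freshly isolated cells (57.9 to 61.4). Slc25a37 is also abundant in red cell precursors, and the erythroid markers Hbb-bs (0 counts in expanded cells, 44.8 CPM in freshly isolated cells) and Alas2 (0 counts in expanded cells, 5.81 CPM in freshly isolated cells) were lower in the expanded library. Their part in the lower Slc25a37 level was not tested.

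**Figure D5:**
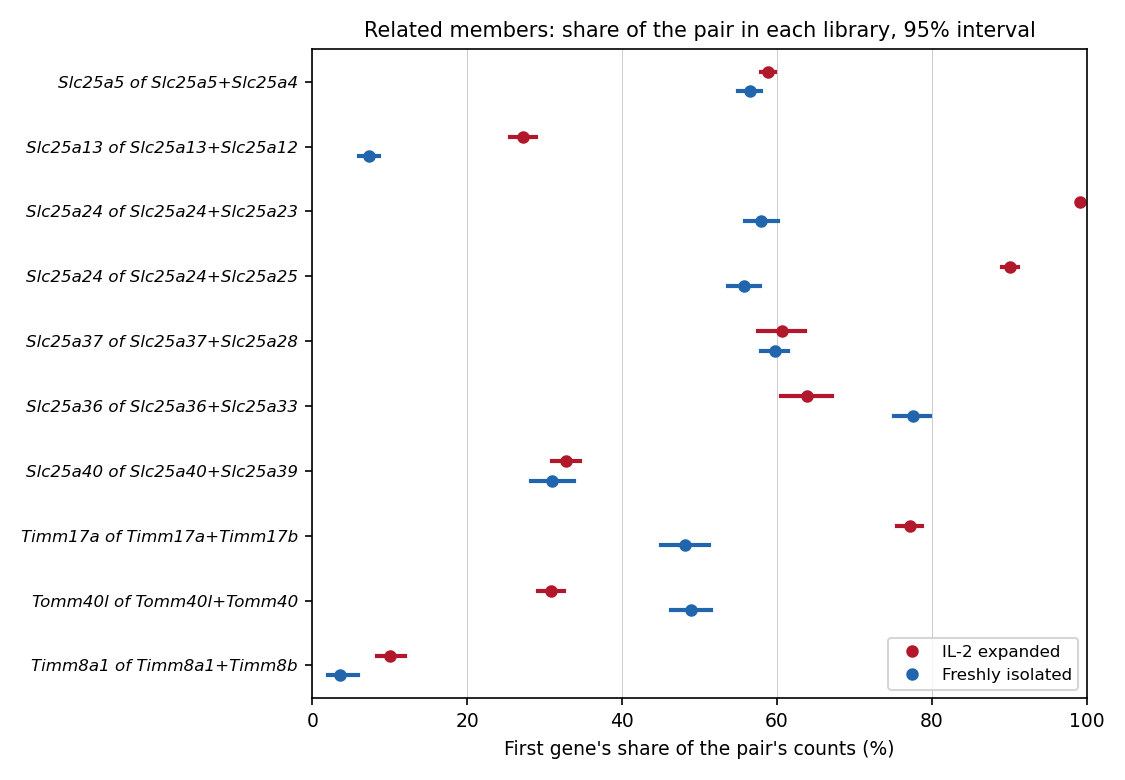
Share of the counts of a pair of related members taken by the first gene (percent, horizontal axis), in expanded (red, upper point) and freshly isolated cells (blue, lower point), with exact 95% intervals. The pairs Slc25a37 with Slc25a28 and Slc25a40 with Slc25a39 keep similar shares, while Slc25a13, Slc25a24 and Timm17a take larger shares in expanded cells. The pairs were chosen after the values were seen.

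Of the carriers related to the uncoupling proteins, 1 of 3 was at least 2-fold apart. Among all genes compared, 22.4% were at least 2-fold higher and 25.0% at least 2-fold lower. Slc25a27 had 15 counts in expanded and 289 in freshly isolated cells, 0.714 and 13.4 CPM, and was 18.8-fold lower (interval 11.2 to 34.1). Slc25a30 stood at 20.3 CPM in expanded and 35.0 CPM in freshly isolated cells, and Slc25a14 at 11.5 and 5.95 CPM, just under 2-fold higher (log2 fold 0.94). The wide interval of Slc25a27 comes with its low count in expanded cells.

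In the last group, Slc25a46, an outer membrane protein tied to mitochondrial dynamics, stood at 103 CPM in expanded and 64.2 CPM in freshly isolated cells. Its transcript matched that of B930094E09Rik over 374 of 4371 bases at 100% identity, so its value is uncertain. Slc25a53 was 2.74-fold lower, at 23.6 CPM in expanded and 64.8 CPM in freshly isolated cells (interval 2.47 to 3.04). Slc25a45 was 2.81-fold lower, at 18.4 and 51.6 CPM (interval 2.50 to 3.16). Slc25a53 overlaps the opposite-strand row Zcchc18, so without a stated use of strand its counts cannot be told apart from those of that gene. The same holds for Timm29 with Yipf2, Timm21 with Fbxo15, Slc25a21 with Pax9, Slc25a26 with Lrig1 and Slc25a35 with Rangrf, and Slc25a39 overlaps Mir6930 on its own strand. Slc25a35 stood at 5.57 CPM in expanded and 5.34 CPM in freshly isolated cells, with a log2 fold of 0.06 whose sign turned with 3 of the 4 other scalings (-0.10 with total count). Under the filter, Slc25a47 had 14 counts in expanded and 11 in freshly isolated cells, Slc25a43 had 6 and 12, and Slc25a34 had 0 and 3.

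As a family, the carriers summed to 2439 CPM in expanded and 2199 CPM in freshly isolated cells, a ratio of 1.11. The TIM and TOM genes summed to 1502 and 894 CPM, a ratio of 1.68. Summed over all rows the same scaling gave a ratio of 1.12. Slc25a3 alone took 26.0% of the carrier counts in expanded and 36.0% in freshly isolated cells, and without it the carriers summed to 1804 CPM in expanded and 1408 CPM in freshly isolated cells. Together the 73 members took 0.373% of all counts in expanded and 0.327% in freshly isolated cells.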

How the data were processed

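RNA-seq of total RNA gave 1 library per group, so no test was made. The authors deposited raw counts (whole numbers) for each gene with its length in kb, on build GRCm38. Per the submitters' processing notes edgeR 3.28.1, HTSeq 0.6.0, STAR 2.6.0 and bcl2fastq 2.18.0.12 were used. Their roles, the annotation and the use of strand are not given in the sources used here. With opposite-strand overlaps or near-identical copies the counts are therefore uncertain. Of the 73 members, 17 overlap another row of the table (rows spanning 1000000 bases or more left out) and 17 of 72 searched share at least 200 bases at 95% identity or more with a transcript of another gene in GENCODE M21 (BLAST).

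Scaling used TMM factors (edgeR 4.0.16 under R 4.3.3; 0.947 for the expanded and 1.06 for the freshly isolated library). Log2 folds used a prior count of 2, and intervals of ratios and shares are exact (Clopper-Pearson, 95%). No molecular identifiers are named in the sources used here, so reads were not taken as separate molecules and the intervals cover counting error only. A count of 0 allows, at 3 counts, a level of up to 0.143 CPM in the expanded and 0.139 CPM in the freshly isolated library. The calculation was tested on simulated counts of 11715 genes for this comparison, and past the 2-fold cutoff came 98.5% of the 200 genes given a 4-fold difference. The simulated counts held counting (Poisson) error only, so this check of the arithmetic says nothing about replicate spread. Promoters of 59 members came from RefSeq.

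Members, classes and gene lists were chosen with earlier results of these data known. The rule for named genes takes every member at least 2-fold apart, the 2 members of highest mean CPM in each class, the members nearest the cutoff, those under the filter, and the 2 genes furthest up and down of each other list. Further members, shown for completeness, and Hspa9, Hspe1 and Dnajc11 fall outside it. Group counts and sums include 1 compared member whose own values are not reported here. The alternative scalings were total count, DESeq2 1.42.0 size factors, upper quartiles and total count less the top 50 genes by count in each library. Also tried were prior counts of 0.5 and 5, no filter, a filter of 5 CPM and a 4-fold cutoff.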

Additional observations from a re-analysis of the deposited data

How the results depend on the processing

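Over the 4 other scalings and the 2 other prior counts, 16 to 19 members were at least 2-fold higher in expanded cells and 9 to 11 at least 2-fold lower, against 19 and 9 as reported. With a 4-fold cutoff the counts were 3 and 2. Without a filter they were 19 and 12, and with a filter of 5 CPM 18 and 8. The median log2 fold of the TIM and TOM genes, 0.64 as reported, was 0.48 with scaling by total count and 0.45 without a filter. The median of the SLC25 carriers, 0.15 as reported, was -0.13 without a filter, so its sign depends on genes of low counts, and -0.00 with scaling by total count. Scaling by total count moved the median of all genes compared to -0.12, against 0.04 as reported. Across scalings and prior counts, 5 of 60 members crossed 2-fold (Slc25a1, Slc25a10, Slc25a15, Slc25a36 and Slc25a42), and 3 changed sign, all with a log2 fold of 0.15 or less as reported. No paired analysis was possible because each group has 1 library. At this depth, folds of members with under about 50 counts in a library, such as Timm8a1, Timm23, Slc25a23, Slc25a27 and Slc25a29, have wide counting intervals, and replicate spread is unknown for every value.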

Other observations

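Mitochondrial transporters outside the symbol rule were also read. Of the SLC25 proteins that carry other symbols, only 4 were compared, of which 3 were at least 2-fold higher in expanded cells and 0 lower. Over all genes compared, 22.4% were at least 2-fold higher and 25.0% at least 2-fold lower. Ucp2, an uncoupling protein of lymphocytes, stood at 1294 CPM in expanded and 598 CPM in freshly isolated cells. Mtch2, an insertase of the outer membrane, stood at 155 and 56.2 CPM, Mtch1 at 118 and 58.0 CPM, and Ucp3 at 1.66 and 0.790 CPM. Ucp1 had 0 counts in expanded cells and 1 count in freshly isolated cells.

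Of 15 other mitochondrial membrane transporters compared, 6 (40%) were at least 2-fold higher, against 22.4% of all genes. At least 2-fold lower were 3 (20%), against 25.0% of all genes, and the median log2 fold was 0.71. The sideroflexins stood at both ends of this list. Sfxn1, a serine carrier of the inner membrane, stood at 218 CPM in expanded and 53.6 CPM in freshly isolated cells, while Sfxn3 stood at 37.2 and 149 CPM and Sfxn4 at 1.71 and 6.69 CPM. Vdac3, an outer membrane channel, stood at 45.0 CPM in expanded and 12.3 CPM in freshly isolated cells. Of the pyruvate carrier genes, Mpc2 stood at 35.8 CPM in expanded and 21.8 CPM in freshly isolated cells, and Mpc1 had 17 counts in expanded and 24 in freshly isolated cells, under the filter.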
